A study of Mus musculus with 4 samples.

Results

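Collagens and other extracellular matrix genes of the mouse liver were described in single cells of male offspring. The set is a fixed list of 38 genes, matched by symbol among the 32285 genes of the count tables. It holds 5 fibrillar collagen chains, 4 collagen VI and fibril-associated chains, 9 basement membrane genes, 4 elastic fibre genes, 4 fibronectin and matricellular genes, 3 small leucine-rich proteoglycans, 4 cross-linking enzymes or chaperones and 5 matrix proteases or inhibitors. No measured value was used to choose them for the present libraries, but the list was drawn up with earlier results of these data known.

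There were 4 libraries, 1 for each group. The offspring were fetuses at E18.5, late in gestation, or adults of 8 weeks. Their mothers were controls (Ctrl) or a model of intrauterine hyperglycemia (IHG), that is, of high maternal glucose while the fetus is carried. Per the labels, each fetal library pooled the litters of 3 pregnant mice and each adult library 3 animals. The strain and the way hyperglycemia was brought about are not given in the sources used here. All livers were digested with collagenases, hyaluronidase and DNase, and the red cells were lysed. Portal vein perfusion is described for the adult livers only, so age and perfusion cannot be told apart. With 1 library per group there is no replicate and no test. The intervals below are exact 95% intervals of the counts, and they cover counting error only, not differences between cells, animals or dissociations.

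The extracellular matrix is the protein scaffold between cells. Collagens I, III and V assemble into fibrils, while collagen IV, laminins, nidogen and perlecan form the sheet-like basement membranes under epithelium and around vessels. In the liver, hepatic stellate cells, portal fibroblasts, the mesothelium of the capsule and the sinusoidal endothelium are known as sources of matrix, and stellate cells and portal fibroblasts deposit fibrillar collagen in fibrosis.

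The libraries held 5245 to 8739 cell barcodes and 17987173 to 105382968 unique molecular identifiers (UMIs, each a counted RNA molecule). Fetal libraries had medians of 6645 (Ctrl) and 9116 (IHG) UMIs per barcode and adult ones 2558 and 2235, so adult levels rest on shallower cells. Haemoglobin took 35.4% of the UMIs in fetal Ctrl and 20.4% in fetal IHG, and at most 0.0110% in the adult libraries. Pairs of libraries shared 8 to 26 barcodes. The 38 genes together made up 0.0118% of all UMIs in fetal Ctrl, 0.0260% in fetal IHG, 0.108% in adult Ctrl and 0.0928% in adult IHG. Levels below are UMIs per 1000000 UMIs of the cell class (CPM). They count 3′ ends and are not divided by gene length, so they are compared between libraries and classes for 1 gene, not between genes. Ratios are log2 of IHG over Ctrl, and genes entered with at least 20 UMIs over both libraries.

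Matrix-rich cells were few. In the fetus the fibroblast/stellate-like class held 19 Ctrl and 11 IHG cells, the mesothelial-like class 1 and 10, the endothelial-like class 30 and 137, and the cholangiocyte-like class 26 and 25. In the adult the same classes held 44 and 61, 70 and 32, 29 and 21, and 123 and 63 cells. Hepatocyte-like cells numbered 88 in fetal Ctrl and 93 in fetal IHG, and there were 0 in either adult library. That 0 depends on the naming rule. Adult clusters 19 (58 Ctrl and 36 IHG cells) and 26 (14 and 8) had the hepatocyte markers Serpina1c and Ahsg among their leading genes. They scored best for cholangiocyte markers but had more hepatocyte markers among those genes, and were left unnamed. The clustering left out all matrix genes.

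The label fibroblast/stellate covered different cells at the 2 ages. In the fetal livers the class carried stellate markers, with 9 of 9 detected in Ctrl and 8 of 9 in IHG. Lrat, the enzyme that stores retinol in stellate cells, was at 213 CPM in Ctrl and 131 CPM in IHG, and Reln at 404 and 643 CPM. Smooth muscle markers were also present there, 8 of 8 with a summed level of 4370 CPM in Ctrl and 5 of 8 with 1588 CPM in IHG, and their part in the fetal results was not tested. In the adult class Lrat, Rgs5, Ngfr, Hhip and Reln were at 0 UMIs in both libraries. The rest of the 9 stellate markers are not reported here for the adult class. The adult class also carried fibroblast markers, such as Clec3b at 1739 CPM in Ctrl and Ly6a at 414 CPM. The adult cells are therefore called fibroblast-like below, not stellate-like.

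The adult IHG library also held a fibroblast-like cluster with no Ctrl cell. Cluster 20 had 44 Ctrl and 39 IHG cells, and cluster 27 had 22 cells, all of them IHG. Cluster 27 was led by Cd248, Tnfaip6, Pi16, Ccl11 and Has1. Its summed fibroblast markers reached 13048 CPM, against 3014 CPM in Ctrl and 5676 CPM in IHG cells of cluster 20. A cluster of 1 library may be that library and not a cell type, so the main adult fibroblast-like results are also given for cluster 20 alone.

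Among the regulatory sequences of these genes, the region around the starts of Col4a1 and Col4a2 is shown because both collagen IV genes start in it, in opposite directions. Col4a1 lies on chromosome 8 at 11198423 to 11312826, minus strand, and Col4a2 at 11312805 to 11449287, plus strand (GENCODE M21 on mm10). Their starts lie 21 bases apart, and the annotated genes overlap between these starts. The window around the Col4a2 start, 250 bases before to 50 after it, was taken from RefSeq (GRCm38.p6) at chr8:11312555-11312854, plus strand. The capitals mark the 78 bases that also lie in the Col4a1 window, chr8:11312777-11312854.
Col4a2: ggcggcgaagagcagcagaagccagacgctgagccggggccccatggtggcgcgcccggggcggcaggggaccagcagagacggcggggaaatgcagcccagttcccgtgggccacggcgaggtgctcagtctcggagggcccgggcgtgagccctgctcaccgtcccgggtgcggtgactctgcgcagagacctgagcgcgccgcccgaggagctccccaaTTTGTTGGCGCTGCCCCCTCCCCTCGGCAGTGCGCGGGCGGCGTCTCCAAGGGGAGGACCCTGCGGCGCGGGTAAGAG

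The windows of Col1a2 (chr6:4505368-4505667, plus strand) and Col3a1 (chr1:45311288-45311587, plus strand) are shown for 2 fibrillar collagens that were described together in every stromal class below. Capitals mark matches to 4 short motifs, searched on either strand and spelled out after the sequences.
Col1a2: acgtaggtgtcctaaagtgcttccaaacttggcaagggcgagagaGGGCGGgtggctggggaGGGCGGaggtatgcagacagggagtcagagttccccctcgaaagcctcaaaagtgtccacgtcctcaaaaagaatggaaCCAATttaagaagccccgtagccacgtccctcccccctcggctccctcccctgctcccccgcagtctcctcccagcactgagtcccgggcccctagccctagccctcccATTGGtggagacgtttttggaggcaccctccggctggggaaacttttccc
Col3a1: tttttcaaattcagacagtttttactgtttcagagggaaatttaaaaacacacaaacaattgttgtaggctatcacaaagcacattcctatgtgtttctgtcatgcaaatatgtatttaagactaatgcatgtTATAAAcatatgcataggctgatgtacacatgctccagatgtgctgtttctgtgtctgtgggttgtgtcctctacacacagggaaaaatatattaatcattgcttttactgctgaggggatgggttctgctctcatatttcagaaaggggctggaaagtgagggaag
Of the 38 genes, 25 had a promoter entry. The GC box GGGCGG was found in 18 of these 25 windows and in 35.7% of all 32851 windows of the same length. The letters CCAAT were found in 10 of 25 and in 37.4% of all. The letters of a TATA box, TATAAA, were found in 1 of 25 (Col3a1, at -117 relative to the start) and in 13.6% of all. The letters of an AP-1 site, TGANTCA, were found in 1 of 25 (Col6a1) and in 7.81% of all. In the Col1a2 and Col3a1 windows no matches overlap. A match is a description of the letters and not a site of binding.

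The share of the 38 genes among a class's UMIs was highest in the stromal classes at both ages. Of the library's UMIs of these genes, fetal fibroblast/stellate-like cells held 21.7% (Ctrl) and 6.32% (IHG). Fetal mesothelial-like cells held 6.77% and 14.6%, and fetal endothelial-like cells 6.90% and 18.3%. Much of the fetal matrix RNA therefore lay in other classes. In the adult, fibroblast-like cells held 43.2% and 67.5%, and mesothelial-like cells 38.4% and 18.3%. In adult fibroblast-like cells the 38 genes made up 4.46% (Ctrl) and 3.72% (IHG) of all UMIs, in adult mesothelial-like cells 1.17% and 1.14%, and in adult endothelial-like cells 0.468% and 0.476%. In the fetal fibroblast/stellate-like class they made up 2.16% and 2.15%, and in fetal endothelial-like cells 0.377% and 0.421%. The 10 mesothelial-like cells of the fetal IHG library held 2.73%, and the single such cell in fetal Ctrl 3.11%. B-like cells, shown as a background, held 0.0029% and 0.0035% in the fetal and 0.0036% and 0.0041% in the adult libraries. They were not free of every member. Of the named classes they held the most Lamc1 UMIs in all 4 libraries. Their shares of Lamc1 were 64.3% (Ctrl) and 30.0% (IHG) in the fetal and 25.8% and 43.6% in the adult libraries. Among classes with at least 10 cells in both libraries of an age, which leaves out the fetal mesothelial-like class, the fibroblast/stellate-like class had the highest CPM for 29 (Ctrl) and 25 (IHG) of the 38 genes in the fetus and for 33 and 31 in the adult.

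A few genes were close to restricted to 1 class. In the adult, fibroblast-like cells held 96.6% (Ctrl) and 97.9% (IHG) of all UMIs of Lum, which encodes the collagen-binding proteoglycan lumican. They held 96.3% and 97.8% of those of Mmp2, a gelatinase, and 88.9% and 98.0% of those of Postn, the matricellular protein periostin. Dcn, the proteoglycan decorin, was shared: fibroblast-like cells held 46.5% and 78.3% of its adult UMIs and mesothelial-like cells 51.6% and 20.1%. Class shares of this kind depended on the processing, as given at the end. After each cell was thinned to 1000 UMIs, Dcn was seen in 100% of adult fibroblast-like cells in both libraries, and in 98.5% (Ctrl) and 90% (IHG) of mesothelial-like cells. In B-like cells it was seen in 0.340% and 0.240%. Thinning left out 3 Ctrl and 4 IHG fibroblast-like cells, and unthinned shares in B-like cells were 0.486% and 0.435%.

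**Figure D1:**
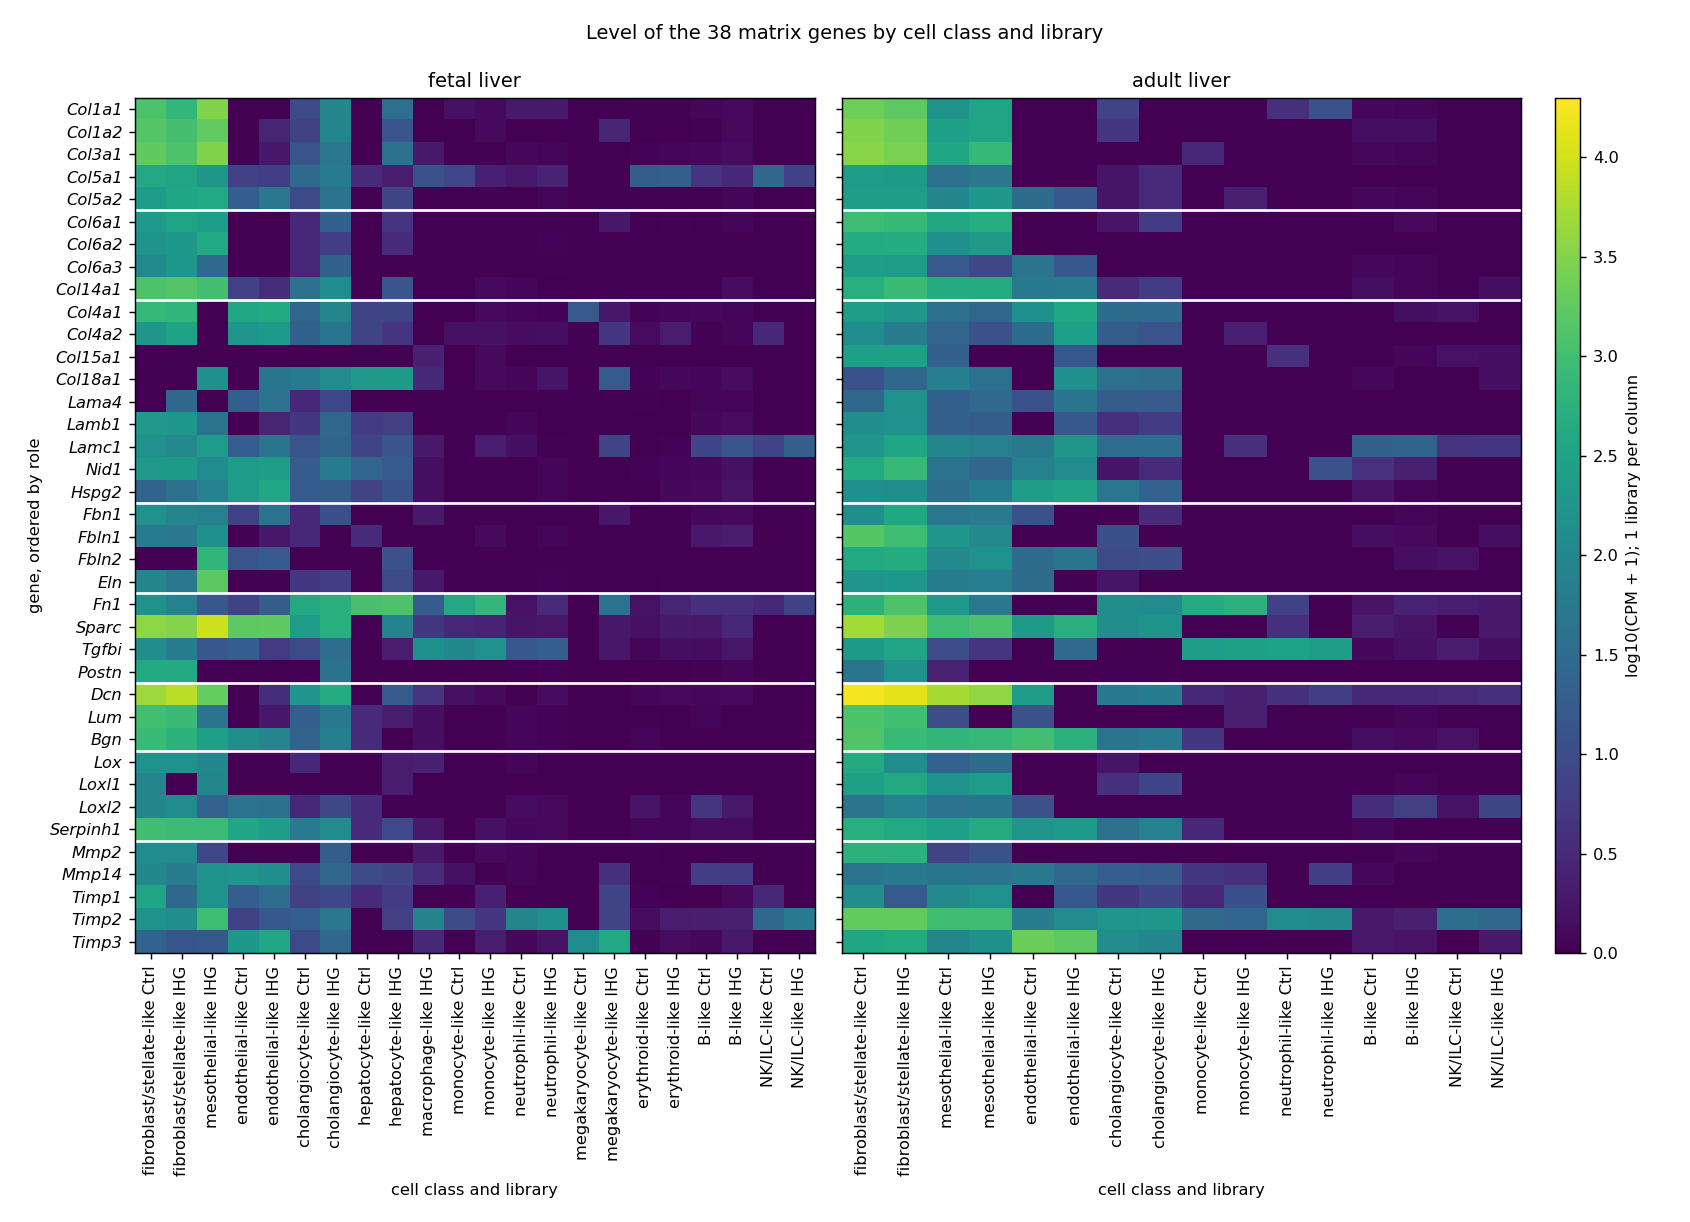
Level of each of the 38 matrix genes (rows, ordered by role) in each cell class and library (columns), as log10 of CPM + 1 in colour, for fetal and adult liver. Brighter colours are higher levels. The fibroblast/stellate-like columns are the brightest for most genes, and Timp3 in adult endothelial-like cells (2145 CPM in Ctrl, 1742 CPM in IHG) is among the exceptions.

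Some members had much of their RNA outside the stroma. Fn1, fibronectin, was at 393 CPM in Ctrl and 710 CPM in IHG in fetal monocyte-like cells, which held 47.6% and 59.2% of the fetal Fn1 UMIs. In the fetal hepatocyte-like class Fn1 was at 1100 CPM (Ctrl) and 1272 CPM (IHG), and within it cluster 28, led by Apob, Itih3 and A2m, reached 2218 and 2161 CPM. The fetal fibroblast/stellate-like class had only 157 and 78.8 CPM of Fn1. Col18a1, whose product carries endostatin at its end, was likewise a hepatocyte gene in the fetus, at 211 and 223 CPM, with 70.1% and 48.4% of its UMIs there. Timp2, an inhibitor of matrix metalloproteases, had 83.9% and 81.8% of its fetal UMIs in neutrophil-like cells, at 94.2 CPM in Ctrl and 144 CPM in IHG. The few fetal fibroblast/stellate-like cells had Timp2 at 157 and 131 CPM. Tgfbi, a secreted adhesion protein, was at 306 and 251 CPM in adult neutrophil-like cells and at 243 and 291 CPM in adult monocyte-like cells. These classes had its highest levels in adult Ctrl, but in adult IHG fibroblast-like cells were highest, at 329 CPM.

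Col5a1, which encodes a chain of the fibril-nucleating collagen V (chromosome 2, 27886425 to 28039514, plus strand, mm10), had most of its fetal UMIs in cells that also carried Klf1, the erythroid master regulator. An unnamed fetal cluster, number 11, held 169 Ctrl and 585 IHG cells. It was led by Prss50, Trnp1, C1qtnf12 and Epdr1, and had Klf1 at 205 CPM in Ctrl and 200 CPM in IHG, where the B-like cluster 0 had 8.79 and 9.62 CPM. Col5a1 stood at 131 CPM in Ctrl and 160 CPM in IHG there, from 651 and 3225 UMIs. These were 35.7% and 79.0% of the library's Col5a1 UMIs. A second unnamed cluster, number 6, led by Cited4 and Pklr, had Klf1 at 290.3 and 289.7 CPM and Col5a1 at 80.4 and 59.2 CPM, 20.5% and 2.89% of the UMIs. Fetal fibroblast/stellate-like cells had higher levels, 393 and 328 CPM, but were so few that they held 1.9% and 0.6% of the Col5a1 UMIs.

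The partner chain of collagen V did not go with Col5a1 in cluster 11. Col5a2 had 0 UMIs there in both libraries, and Col1a1 was at 0.201 CPM in Ctrl and 0.149 CPM in IHG. Of the cluster's cells, 131 of 169 in Ctrl and 475 of 585 in IHG had a Col5a1 UMI (77.5% and 81.2%). They were deep cells, with medians of 30022 and 34340 UMIs. Thinned to 1000 UMIs per cell, the shares were 12.4% (exact binomial interval 7.86% to 18.4%) in Ctrl and 12.5% (9.91% to 15.4%) in IHG. In the B-like cluster 0, thinned in the same way, the share was 0 in both libraries, with upper limits of 0.397% and 1.07%. The erythroid-like cluster 10 had 54.5 CPM in Ctrl and 53.8 CPM in IHG, while clusters 3 and 7, also erythroid-like, had 10.6 to 16.0 CPM. The erythroid-like clusters 1 and 8, with 82.2% to 85.5% haemoglobin, had 1.68 to 3.26 CPM, near the 1.01 and 1.48 CPM of the B-like cluster 0. The Col5a1 locus overlaps 2810430I11Rik and Gm13372 on the opposite strand, and the strand setting of the counting is not given in the sources used here.

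**Figure D2:**
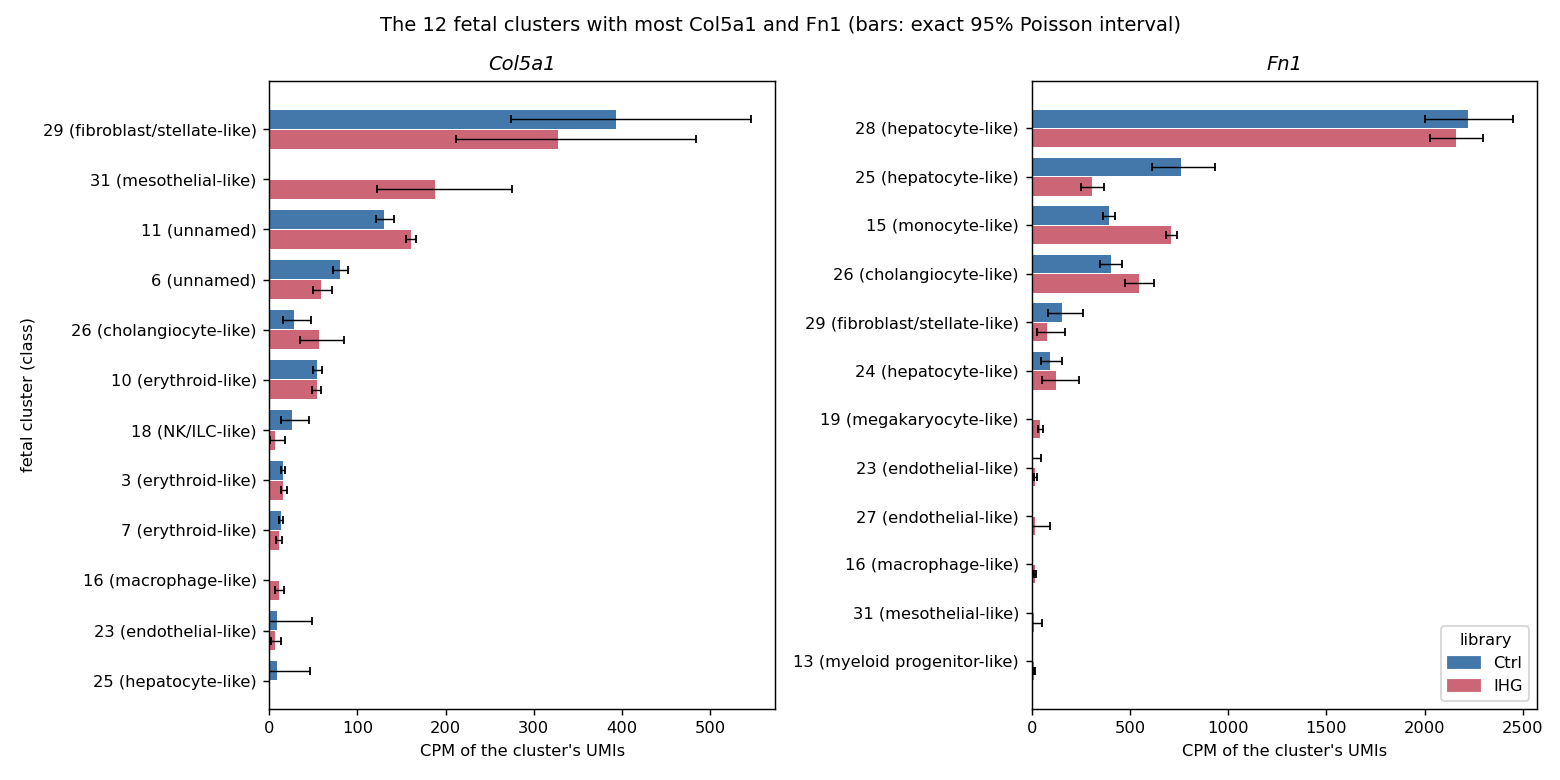
Level of Col5a1 and Fn1 in the 12 fetal clusters with most of each gene (CPM of the cluster's UMIs, bars are exact 95% Poisson intervals, colours are the libraries). For Col5a1 the fibroblast/stellate-like cluster (393 CPM in Ctrl, 328 CPM in IHG) leads, followed by the mesothelial-like cluster (188 CPM in IHG, the single Ctrl cell is not drawn) and clusters with erythroid genes, and for Fn1 hepatocyte-like and monocyte-like clusters lead.

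Adult fibroblast-like cells of IHG and Ctrl offspring were compared first. Over the whole class, Col1a1, Col1a2, Col3a1 and the 3 small proteoglycans were lower in the IHG library, while Fn1, Fbn1, Postn, Lama4, Lamc1 and Nid1 were higher. Part of these differences was not seen in cluster 20 alone, as given further on. Over the 38 genes, 37 had enough UMIs. Of these 17 were higher and 20 lower in IHG, 9 with an interval above 0 and 11 with one below 0. Of all 3193 genes tested, 9.49% and 10.5% had such intervals. At least a 2-fold difference was reached by 5 genes upward and 2 downward, where 9.27% and 6.89% of all genes tested did so. The median log2 ratio was −0.04 and that of all genes −0.04. The summed level of the 38 genes differed by −0.26 on the log2 scale (interval −0.30 to −0.22).

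Of the 5 fibrillar collagen genes, 3 were lower in IHG in this class with an interval below 0. Col1a1, the main chain of collagen I, was at 2219 CPM in Ctrl and 1703 CPM in IHG, from 402 and 544 UMIs, a log2 ratio of −0.38 (interval −0.57 to −0.19). Col1a2, its partner chain, was at 3097 and 2313 CPM (−0.42). Col3a1, the chain of collagen III, was at 3373 and 2726 CPM (−0.31, interval −0.46 to −0.16). Col5a1 (232 and 216 CPM) and Col5a2 (254 and 254 CPM) differed by less than their counting error. The sum of the 5 genes differed by −0.35 (interval −0.44 to −0.26).

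The small leucine-rich proteoglycans, which coat collagen fibrils, were lower as well. Dcn was at 16842 CPM in Ctrl and 13382 CPM in IHG (−0.33, interval −0.40 to −0.26). Lum was at 1259 and 999 CPM (−0.33) and Bgn, biglycan, at 1369 and 833 CPM (−0.72). Sparc, a collagen-binding matricellular protein, was at 5040 CPM in Ctrl and 2858 CPM in IHG, a log2 ratio of −0.82 (interval −0.95 to −0.68). Fbln1, fibulin 1, was at 1441 and 905 CPM (−0.67).

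Fibronectin and some basement membrane genes went the other way. Of 8 measured basement membrane genes 5 were higher and 3 lower, with an interval above 0 for 3 (Lama4, Lamc1 and Nid1) and below 0 for 1 (Col4a2). Lama4, a laminin chain of vessels, had 5 UMIs in Ctrl and 50 in IHG, which is 27.6 and 157 CPM (2.38, interval 1.19 to 4.19). Lamc1, the laminin chain shared by most laminins, was at 171 and 347 CPM (1.01), and Nid1, nidogen, which links laminin to collagen IV, at 442 and 754 CPM (0.77). Fn1 was at 585 CPM in Ctrl and 1240 CPM in IHG (1.08, interval 0.77 to 1.41). Fbn1, the microfibril protein fibrillin 1, was at 138 and 373 CPM (1.41, interval 0.80 to 2.12), and Postn at 44.2 and 157 CPM (1.75, interval 0.74 to 3.11). Col4a2 was at 121 and 62.6 CPM (−0.95, interval −1.91 to −0.01), and Col4a1 (−0.35), Hspg2 (−0.07), Lamb1 (0.11) and Col15a1 (0.05) had intervals that include 0.

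Cross-linking enzymes and protease inhibitors split within their groups. Lox, lysyl oxidase, which cross-links collagen and elastin, was at 420 CPM in Ctrl and 122 CPM in IHG (−1.77, interval −2.38 to −1.21). Its relative Loxl1 was at 282 and 401 CPM (0.50), and Serpinh1, the collagen chaperone HSP47, at 524 and 404 CPM (−0.38, with an interval that includes 0). Timp1 had 24 Ctrl and 5 IHG UMIs (−2.97), and 58.3% of its Ctrl UMIs came from 1 cell. Timp2 (1866 and 1816 CPM) and Mmp2 (569 and 551 CPM) were close in the 2 libraries.

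**Figure D3:**
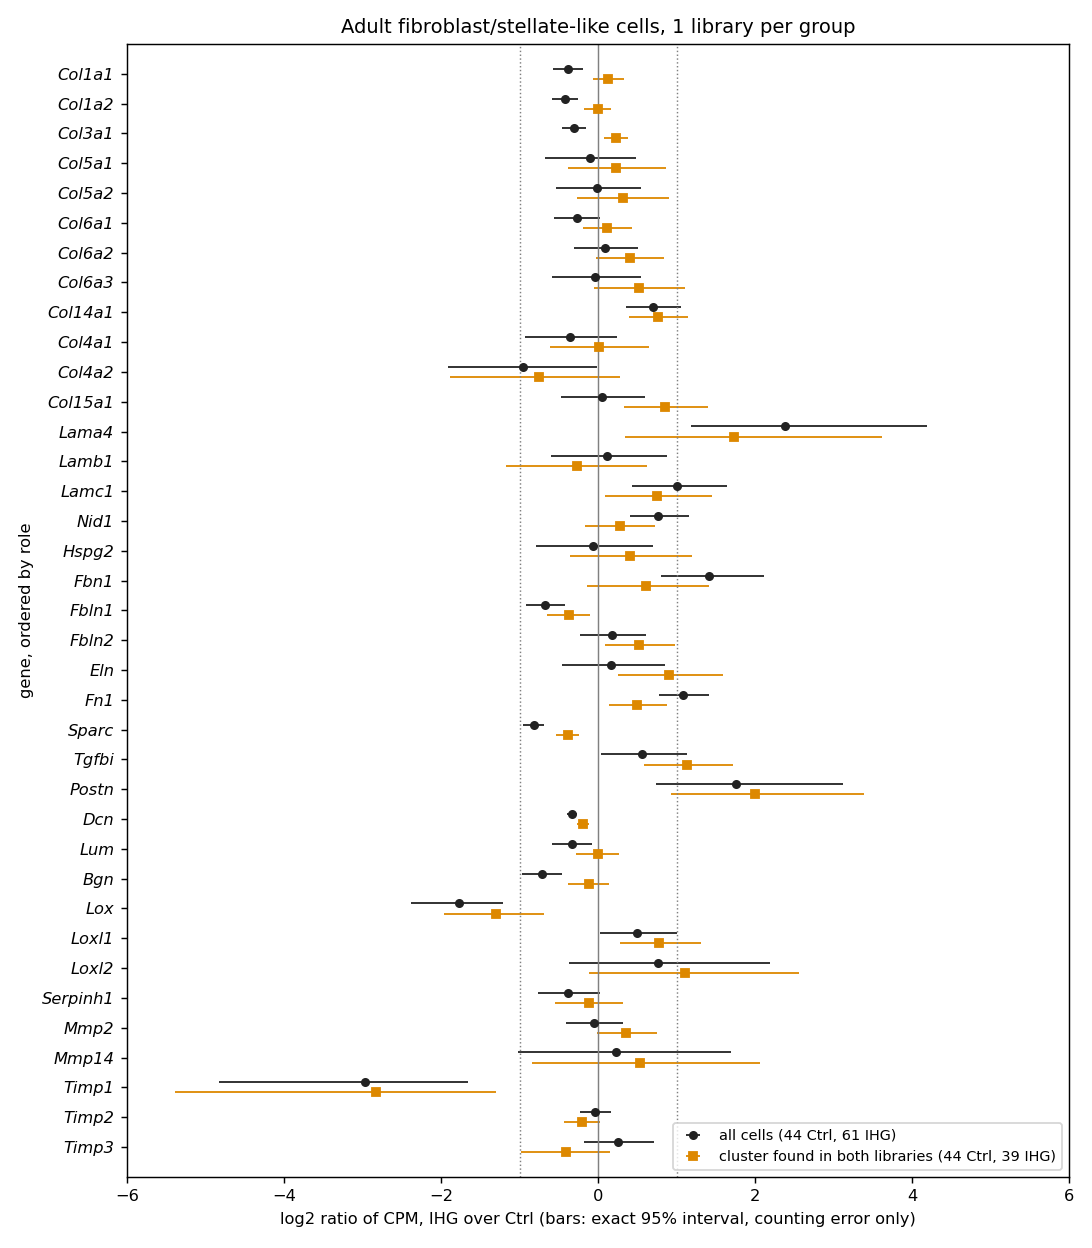
Log2 ratio of CPM, IHG over Ctrl, of the matrix genes in adult fibroblast/stellate-like cells (points, with exact 95% intervals for counting error), for all cells of the class (black) and for the cluster found in both libraries (orange), with dotted lines at 2-fold. Lox lies below 0 and Lama4, Fbn1, Fn1 and Postn above 0 in both sets, while the fibrillar collagens Col1a1 and Col3a1 change sides. The interval of Fbn1 includes 0 in the cluster found in both libraries.

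The collagen difference was not seen without the cluster found only in IHG. Within cluster 20, present in both libraries, Col1a1 was at 2219 CPM in Ctrl and 2426 CPM in IHG (0.13), Col3a1 at 3373 and 3947 CPM (0.23), and Col1a2 at 3097 and 3091 CPM (−0.00). The sum of the 5 fibrillar genes was then slightly higher in IHG (0.13, interval 0.04 to 0.23), against −0.35 over the whole class. In cluster 20, 37 members had enough UMIs, 24 of them higher and 13 lower, with a median of 0.27 where that of all genes was −0.02. Here 4 members were at least 2-fold higher and 2 at least 2-fold lower, beside 6.22% and 5.76% of all genes. The summed level differed by −0.03 (interval −0.07 to 0.02).

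Other differences were seen within cluster 20 too. Lox was at 420 CPM in Ctrl and 169 CPM in IHG there (−1.30, interval −1.96 to −0.69), and Sparc at 5040 and 3855 CPM (−0.39). Postn was at 44.2 and 185 CPM (2.00), Lama4 had a ratio of 1.73, Tgfbi was at 221 and 485 CPM (1.13), and Col15a1, a basement membrane-zone collagen, at 265 and 480 CPM (0.85). Fn1 was at 585 and 829 CPM (0.50). Dcn was at 16842 and 14780 CPM (−0.19). Lamc1 had a ratio of 0.75, Fbln1 of −0.37 and Timp1 of −2.83, each with an interval on 1 side of 0.

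For other genes the whole-class difference was smaller or absent in cluster 20. Lum was at 1259 and 1254 CPM (−0.01) and Bgn at 1369 and 1259 CPM (−0.12), both with intervals that include 0, so of the small proteoglycans only Dcn was lower there beyond counting error. The intervals of Nid1 (442 and 534 CPM, 0.27), Fbn1 (138 and 213 CPM, 0.61) and Col4a2 (−0.75) included 0 as well.

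The cluster found only in IHG had its own matrix profile. It held Col1a1 at 728 CPM, Col3a1 at 1081 CPM, Sparc at 1514 CPM and Bgn at 257 CPM, all below the IHG cells of cluster 20 in the same library. Col15a1 had 88 UMIs in the IHG cells of cluster 20 and 0 in cluster 27. Fn1 at 1794 CPM, Nid1 at 1051 CPM, Fbn1 at 588 CPM and Timp3, an inhibitor bound to the matrix, at 625 CPM were above them. Decorin was high in both, at 11496 CPM in cluster 27 and 14780 CPM in IHG cells of cluster 20.

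**Figure D4:**
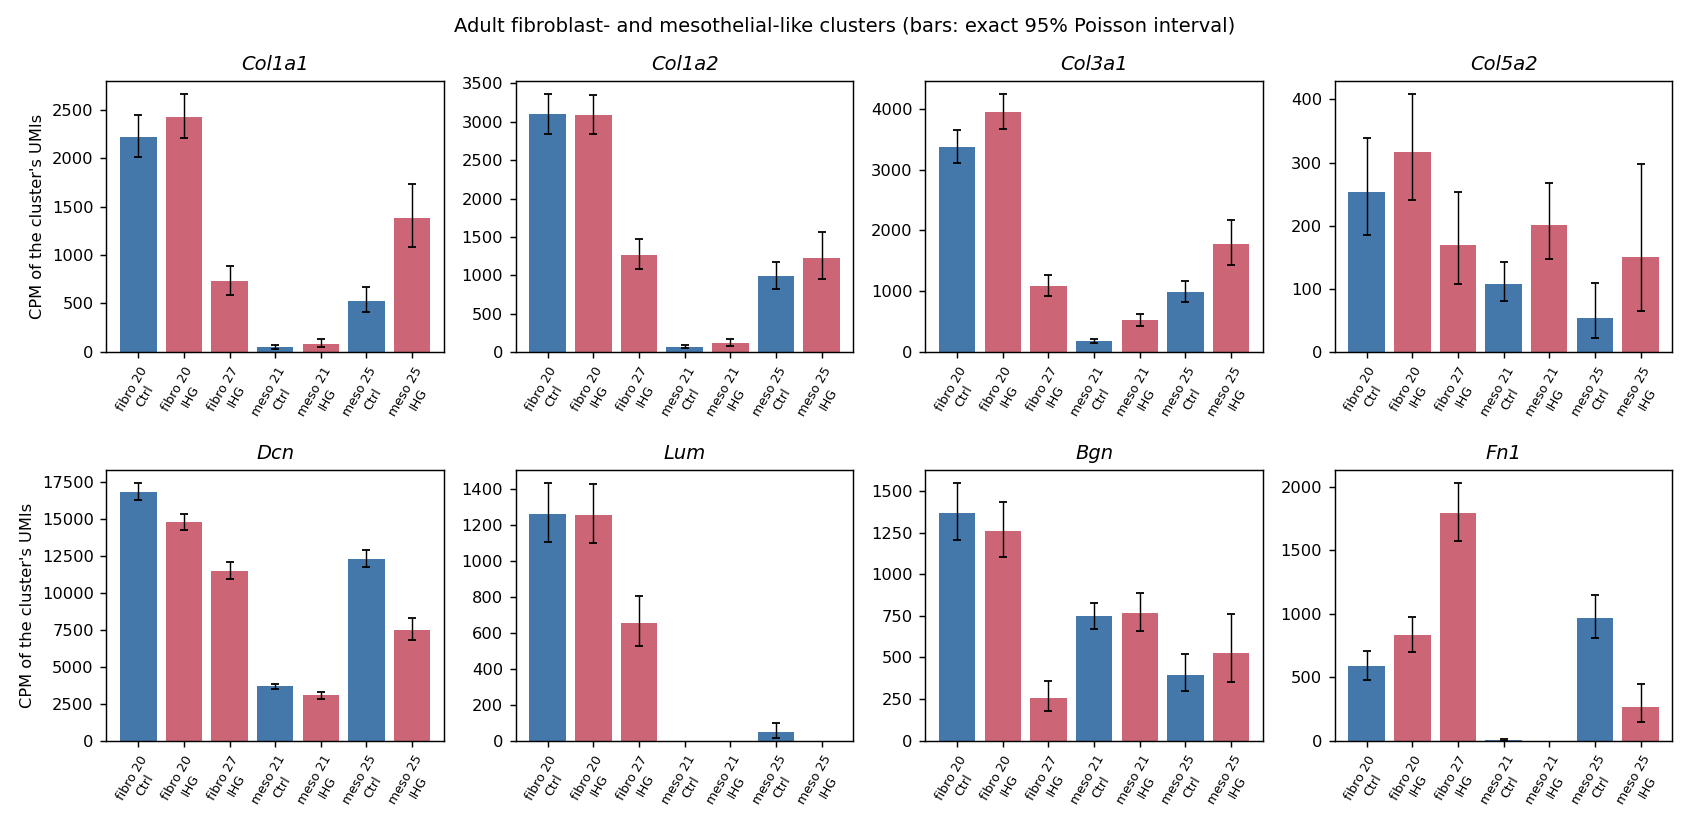
Level of selected matrix genes in the adult fibroblast-like clusters 20 and 27 and the adult mesothelial-like clusters 21 and 25, for each library (blue Ctrl, red IHG, in CPM of the cluster's UMIs, error bars are exact 95% Poisson intervals). Cluster 27 has no Ctrl cell, and its Col1a1 (728 CPM) lies below both libraries of cluster 20 (2219 and 2426 CPM).

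Other matrix genes, from 8 lists fixed by function, were read in the same adult fibroblast-like cells. Of all genes tested in this class, 46.7% were higher in IHG, 9.27% were at least 2-fold higher and 6.89% at least 2-fold lower. Of 14 other elastic fibre and microfibril genes, 11 had enough UMIs, with 4 higher, 7 lower, 2 at least 2-fold higher and 0 at least 2-fold lower. Mfap5, a microfibril-associated glycoprotein, was at 420 CPM in Ctrl and 1894 CPM in IHG (2.17, interval 1.83 to 2.54), and Ltbp1, which tethers latent TGF-beta, had a ratio of 1.13. Of 21 other proteoglycans and matricellular genes, 16 had enough UMIs, with 6 higher and 10 lower, 2 and 3 of them past 2-fold. Dpt, dermatopontin, was at 3141 and 1972 CPM (−0.67) and Sparcl1 had a ratio of −1.14. Spp1, osteopontin, had 79 UMIs in Ctrl, 96.2% of them in 1 cell, and 0 in IHG.

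In cluster 20 alone Mfap5 was at 420 and 1276 CPM (1.60), and the ratios of Ltbp1 (1.28), Dpt (−0.42) and Sparcl1 (−0.70) also kept their side of 0 with their intervals.

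Of 22 other proteases and inhibitors, 10 had enough UMIs, with 8 higher and 2 lower. Adamts5, an aggrecan-cleaving protease, was at 116 and 347 CPM (1.56), and Mmp3, stromelysin 1, at 1728 and 761 CPM (−1.18), with 51.4% of the Ctrl and 46.9% of the IHG UMIs in 1 cell each. In cluster 20 alone Adamts5 was at 116 and 114 CPM (−0.02) and Mmp3 had a ratio of −0.85. In the list of TGF-beta ligands, receptors and feedback genes, 9 of 15 had enough UMIs, with 5 higher and 4 lower. Of 20 collagen synthesis genes 12 had enough UMIs, with 7 higher and 5 lower, among them Pcolce2 with 0.66 (0.11 in cluster 20 alone, with an interval that includes 0). Matrix receptors gave 6 higher and 2 lower of 8, other collagens 2 and 2 of 4, and other laminins and basement membrane genes 2 and 1 of 3.

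Cells of other types could add RNA to the adult fibroblast-like class. Summed hepatocyte markers were at 436 CPM in Ctrl and 113 CPM in IHG, mesothelial markers at 88 and 75 CPM, all from Wt1, and smooth muscle markers at 39 and 13 CPM. Their part in the ratios was not tested. Leaving out the cell with the most UMIs of each gene in each library kept the sign of 36 of the 37 ratios and the counts of 5 and 2 past 2-fold. Timp1 then stood at −2.11.

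Mesothelial-like cells, which cover the liver surface, were the other large adult source of matrix RNA. Fibrillar collagen was higher in their IHG library, with 5 of 5 genes above Ctrl and a summed ratio of 0.87 (interval 0.69 to 1.05). The fibroblast-like class as a whole went the other way. Its cluster 20 alone, found in both libraries, was also slightly higher in IHG (0.13, interval 0.04 to 0.23). Of 30 members with enough UMIs, 22 were higher and 8 lower, 10 and 3 of them with an interval that excluded 0, as 4.90% and 6.13% of all genes had. The 2-fold mark was passed by 2 members upward and 1 downward, beside 3.3% and 5.01% of all 5366 genes. The median was 0.32 and that of all genes −0.02. The summed level of the 38 genes differed by −0.04 (interval −0.10 to 0.02), and Dcn, with 3386 of the 7171 member UMIs in Ctrl, was lower in IHG.

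Col3a1 was at 350 CPM in Ctrl and 756 CPM in IHG, from 214 and 213 UMIs (1.11, interval 0.83 to 1.39). Col1a1 was at 152 and 327 CPM, from 93 and 92 UMIs (1.10, interval 0.67 to 1.53), and stood at 0.67 without the top cell of each library. Col5a2 was at 96.5 and 192 CPM (0.99) and Col1a2 at 265 and 327 CPM (0.30). The genes that handle collagen were higher too: Serpinh1 was at 286 and 447 CPM (0.64) and Loxl1 at 152 and 241 CPM (0.67). Collagen VI, the beaded-filament collagen of the cell surface, was at 365 and 479 CPM for Col6a1 (0.40), and Col6a2 had a ratio of 0.58.

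Decorin, fibronectin and fibulin 1 were lower in the IHG mesothelial-like cells. Dcn was at 5540 CPM in Ctrl and 3893 CPM in IHG (−0.51, interval −0.61 to −0.41), and Fbln1 had a ratio of −0.87. Fn1 had 129 Ctrl and 14 IHG UMIs (211 and 49.7 CPM, −2.04), but 69.0% of the Ctrl and 50% of the IHG UMIs lay in 1 cell each, and the ratio was −1.30 without these cells. Timp2 (969 and 969 CPM) and Bgn (671 and 720 CPM) were close in both. Sparc was at 936 and 1182 CPM (0.34), with 30.4% and 40.5% of its UMIs in 1 cell each. Without the top cells 26 of 30 ratios kept their sign, and Fbln2 went from 0.67 to −0.09.

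The mesothelial-like class held 2 clusters. Cluster 21, with 53 Ctrl and 24 IHG cells, carried mesothelial markers at 4779 and 4358 CPM in sum. Cluster 25, with 17 and 8 cells, carried them at 2505 and 3019 CPM, had fibroblast markers at 1005 and 547 CPM, and was led by Cxcl13, Enpp2 and Fgf1. The fibrillar sum was higher in IHG in both, by 1.14 (interval 0.86 to 1.42) in cluster 21 and by 0.83 (0.58 to 1.07) in cluster 25. Col3a1 was at 177 CPM (Ctrl) and 520 CPM (IHG) in cluster 21 and at 982 and 1774 CPM in cluster 25. Sparc had opposite signs, with 890 and 695 CPM (−0.35) in cluster 21 and 1104 and 3283 CPM (1.57) in cluster 25. Nearly all Fn1 lay in cluster 25, at 967 and 264 CPM.

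Among the other matrix lists in mesothelial-like cells, 10 of the 12 measured proteoglycan and matricellular genes were higher in IHG and 2 lower, with 0 at least 2-fold higher and 2 at least 2-fold lower. Of all genes tested in this class, 48.6% were higher in IHG, 3.3% were at least 2-fold higher and 5.01% at least 2-fold lower. Ccn1, an injury-responsive matricellular protein, was at 376 and 618 CPM (0.72). Of 12 measured collagen synthesis genes 10 were higher and 2 lower, with Pcolce, which enhances procollagen processing, at 142 and 231 CPM (0.70). Of 7 measured elastic fibre genes 5 were higher, among them Ltbp4 at 0.34. Sdc4, a heparan sulfate receptor for fibronectin, was at 1028 and 689 CPM (−0.58), and Plat, tissue plasminogen activator, at 76.9 and 35.5 CPM (−1.06).

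Adult endothelial-like cells, 29 in Ctrl and 21 in IHG, showed higher collagen IV in the IHG library. Col4a1 was at 141 CPM in Ctrl and 363 CPM in IHG, from 13 and 25 UMIs (1.34, interval 0.34 to 2.46). Col4a2, which starts beside Col4a1 in the window shown above, had 3 and 18 UMIs, or 32.5 and 261 CPM (2.82, interval 1.23 to 5.41). Hspg2, the heparan sulfate proteoglycan perlecan, was at 249 and 305 CPM (0.29), with an interval that includes 0. The summed basement membrane genes were higher by 1.36 (interval 0.87 to 1.88). Col18a1 had 0 UMIs in Ctrl and 10 in IHG, below the minimum.

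Only 8 members had enough UMIs in the adult endothelial-like cells, 5 higher and 3 lower, and 3 and 1 were past 2-fold, where 8.56% and 6.67% of all 1274 genes were. Sparc was at 217 and 494 CPM (1.17), and at 0.82 (interval −0.14 to 1.82) without the top cell. Bgn was at 1008 and 552 CPM (−0.86, interval −1.45 to −0.31). Timp3 was at 2145 and 1742 CPM (−0.30, with an interval that includes 0). All 21 UMIs of Dcn in Ctrl came from 1 cell. Ccn2, connective tissue growth factor and a listed matricellular gene, was at 737 and 174 CPM (−2.03).

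Adult cholangiocyte-like cells, 123 in Ctrl and 63 in IHG, held little matrix RNA, 0.0953% and 0.0998% of their UMIs. Of 14 members with enough UMIs 6 were higher and 8 lower. Serpinh1 was 2-fold higher (37.0 and 75.3 CPM, 1.03) and Hspg2 2-fold lower (48.1 and 21.2 CPM, −1.12), beside 2.83% and 2.68% of all genes. Fn1 (130 and 125 CPM) and Timp2 (180 and 195 CPM) were close in both. Their Dcn UMIs came almost wholly from 1 cell in each library (95.8% and 100%).

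In the fetal fibroblast/stellate-like class, 19 Ctrl and 11 IHG cells, fibrillar collagens I and III were lower in IHG and decorin was higher. Col1a1 was at 1191 CPM in Ctrl and 709 CPM in IHG, from 106 and 54 UMIs (−0.74, interval −1.25 to −0.26). Col3a1 was at 1786 and 1247 CPM (−0.52) and Col1a2 at 1427 and 1063 CPM (−0.42). The fibrillar sum differed by −0.44 (interval −0.66 to −0.22). Dcn was at 4651 CPM in Ctrl and 7219 CPM in IHG (0.63, interval 0.45 to 0.82), and Sparc at 3774 and 3124 CPM (−0.27).

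Of 26 members with enough UMIs in this fetal class 9 were higher and 17 lower, with a median of −0.10 against 0.04 for all genes, and a summed level that differed by −0.01 (interval −0.10 to 0.09). None (0) was at least 2-fold higher, beside 6.77% of all 1241 genes, and 1 was at least 2-fold lower, beside 4.83%. That gene was Timp1, with 31 and 2 UMIs, and 67.7% of the Ctrl UMIs lay in 1 cell. Col14a1, a fibril-associated collagen (1236 and 1418 CPM), and Col4a1 (730 and 683 CPM) were close in both. Ccn1 was at 157 and 551 CPM (1.78), and Mfap4, a microfibril-associated protein, had a ratio of −1.12. The fibrillar ratios reversed when cells were thinned to 1000 UMIs before clustering, which made a class of 15 Ctrl and 21 IHG cells with Col1a1 at 0.62 and Col3a1 at 0.60.

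A further 10 cells held much of the fibrillar collagen RNA of the fetal IHG library. They were mesothelial-like, and the fetal Ctrl library had 1 such cell, so the 2 were not compared. In the 10 IHG cells Col1a1 was at 3007 CPM, Col3a1 at 3115 CPM, Col1a2 at 1872 CPM, Sparc at 9267 CPM and Eln, the elastin gene, at 1619 CPM. These cells held 72.7% of the library's Col1a1 UMIs, 72.4% of its Col3a1, 91.8% of its Eln and 74.8% of its Fbln2, the fibulin 2 gene. The single Ctrl cell had Col1a1 at 3313 CPM and Eln at 3417 CPM.

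Fetal endothelial-like cells, 30 in Ctrl and 137 in IHG, had higher basement membrane levels in IHG, with 7 of 7 measured genes above Ctrl and a summed ratio of 0.40 (interval 0.17 to 0.64). Of all genes tested in this class, 55.7% were above Ctrl. Hspg2 was at 240 CPM in Ctrl and 362 CPM in IHG, from 39 and 408 UMIs (0.58, interval 0.12 to 1.11). Col4a1 was at 356 and 431 CPM (0.26) and Col4a2 at 178 and 209 CPM (0.21), both with an interval that includes 0. Nid1 was at 240 and 250 CPM. Timp3 was at 197 and 357 CPM (0.84, interval 0.34 to 1.43). Sparc was alike at 1715 and 1745 CPM, and Serpinh1 lower at 350 and 256 CPM (−0.46, interval −0.87 to −0.02).

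Of 18 members with enough UMIs in fetal endothelial-like cells 14 were higher and 4 lower, with a median of 0.42 against 0.09 for all genes. The 2-fold mark was passed upward by 5, beside 12.1% of all 6396 genes, and downward by 0, beside 4.75%. These 5 rested on few Ctrl UMIs: Col5a2, Lamc1 and Lama4 had 3 each, Fbn1 had 1 and Col18a1 had 0 against 52 in IHG. At a floor of 3 counts in Ctrl, Col18a1 was higher by at least 1.32 on the log2 scale. Median depth also differed, with 4239 UMIs per Ctrl cell and 7934 per IHG cell, and its part in these ratios was not tested. Among other listed genes, Smad7, a feedback inhibitor of TGF-beta signalling, had a ratio of 1.57, Adamts9 1.34, Plod1, a collagen lysyl hydroxylase, 1.18, and Itga9 1.05.

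The matrix genes of the fetal epithelial classes were higher in IHG cholangiocyte-like cells and rested on few cells in hepatocyte-like ones. In fetal cholangiocyte-like cells all 17 members with enough UMIs were higher in IHG, 14 of them at least 2-fold and 0 at least 2-fold lower, with a median of 1.51 where that of all genes was 0.45. Of all genes in this class, 21.2% were at least 2-fold higher and 4.86% at least 2-fold lower. All 90 Dcn UMIs in Ctrl came from 1 cell, as did 44.5% of the 173 in IHG. Without the top cell of each gene in each library 17 of 17 ratios stayed above 0, 15 of them at least 2-fold, with a median of 1.94. This step left Col1a1, Col1a2, Col3a1, Col5a2, Col14a1, Dcn and Lum with 0 or 1 UMI in Ctrl, so their ratios rest on almost no Ctrl counts. Each of these genes was seen in only 3 to 5 IHG cells before the step. Markers of other cell types were higher in these IHG cells as well. Summed stellate markers were at 81.1 CPM in Ctrl (5 of 9 detected) and 237 CPM in IHG (9 of 9), smooth muscle markers at 14.2 (4 of 8) and 163 CPM (5 of 8), and macrophage markers at 4.06 (2 of 10) and 272 CPM (8 of 10). Endothelial markers, 14 of 14 detected in both, were at 205 and 392 CPM. The class's own cholangiocyte markers were at 215 and 430 CPM (9 of 10 in both), far below its hepatocyte markers at 34063 and 48403 CPM. Haemoglobin made up 27.1% of the UMIs of the Ctrl cells and 3.92% of those of the IHG cells. The part of these cell types and of haemoglobin in the ratios was not tested. In fetal hepatocyte-like cells Col1a1, Col3a1 and Sparc had 0 UMIs in Ctrl, and 97.4% to 100% of their IHG UMIs came from 1 cell, beside 7.54% of all genes at least 2-fold higher and 2.9% lower. Fn1 there was at 1100 and 1272 CPM (0.21), and Col18a1 at 211 and 223 CPM (0.07).

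Across age, the same class name joins stellate-like fetal cells to adult fibroblast-like cells, so age and cell kind cannot be told apart. In Ctrl, 25 of 34 members were higher in adult than in fetal cells, with a median log2 ratio of 0.90 against −0.13 for all genes. In IHG, 24 of 36 were, with a median of 1.15 against −0.22. Fbln1 was higher by 4.55 in Ctrl and 3.94 in IHG, Timp3 by 3.64 and 4.41, Timp2 by 3.52 and 3.72, and Mmp2 by 2.14 and 2.15. Col1a1 was higher by 0.89 and 1.25 and Col3a1 by 0.91 and 1.12. Col15a1 and Fbln2 had 0 UMIs in the fetal class, and at a floor of 3 counts they were higher by at least 2.97 and 3.60 in Ctrl and at least 2.81 and 3.56 in IHG.

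A smaller number of members was higher in the fetal class. Col4a1, a basement membrane chain that stellate cells also make, differed by −1.58 in Ctrl and −1.84 in IHG. Postn differed by −3.20 and −1.43, Col14a1 by −1.25 and −0.76, and Serpinh1 by −0.87 and −1.15. The signs of these 4 genes were the same in both pairs of libraries.

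**Figure D5:**
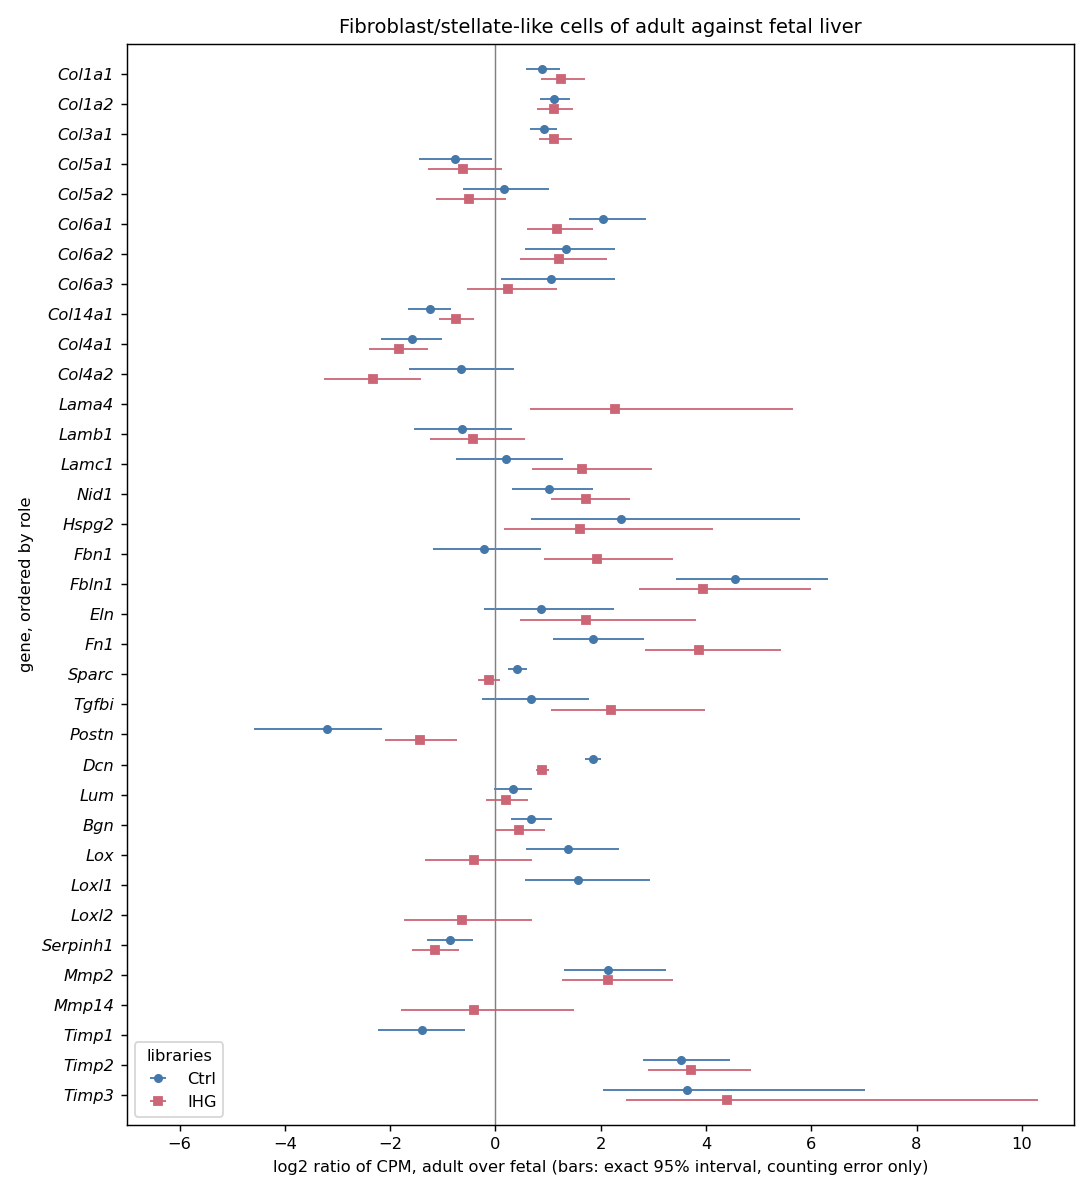
Log2 ratio of CPM, adult over fetal, of the matrix genes in fibroblast/stellate-like cells (points, with exact 95% intervals for counting error), for the Ctrl and the IHG libraries. Most points lie above 0, with Fbln1 at 4.55 and 3.94, and Col4a1, Postn, Col14a1 and Serpinh1 lie below 0 in both.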

How the data were processed

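Single-cell RNA was measured in 4 pooled mouse liver libraries. The authors deposited UMI counts for each gene and barcode. Cell Ranger 5.0.0 wrote them, per the file headers. The submitters' processing notes list Cell Ranger, Seurat and build mm10. No cell annotation was used.

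Barcodes needed 300 genes or more and no more than 25% mitochondrial UMIs. Scrublet (scanpy 1.11.5) then removed 107 fetal Ctrl and 267 fetal IHG barcodes as doublets, and 244 and 286 adult ones. Its own threshold marked under 0.5% of adult barcodes, so those above the 95th percentile of the score were removed there. This left 7594, 7925, 4951 and 6500 cells. Both libraries of each age were clustered jointly (log of scaled counts, 2000 variable genes without mitochondrial, ribosomal and matrix genes, 30 principal components, 15 neighbours, Leiden resolution 1.0, leidenalg 0.10.2), and stromal and epithelial cells were clustered again.

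Names ending in "-like" come from lists of markers. The naming rule was chosen with the clusters in view, and the 38 genes and other lists were chosen with earlier results of these data known. Counts were summed per class. Ratios had 0.5 added to each count, with exact conditional Poisson intervals. With 1 library per group no test was made. A gene was called at 2-fold. The floor was 3 counts per class sum. Of the other matrix lists, the 3 genes with most UMIs, and genes with at least 50 UMIs, a 2-fold difference and an interval without 0, could be named. A gene that this rule allows is not reported here. The intervals were tried on class sums simulated as Poisson counts, the model that they assume. They held the true ratio for 96.2% of genes in adult fibroblast-like cells and 96.4% in adult mesothelial-like cells. The shares were 96.9% in fetal fibroblast/stellate-like and 96.6% in fetal endothelial-like cells. The simulation had no spread between cells, animals or libraries, so it cannot show that the intervals cover such spread. Alternatives covered filters, doublets, clustering, scaling, thinning and minimum counts, and leaving out a cluster of 1 library or the top cell.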

Additional observations from a re-analysis of the deposited data

Results flagged for a closer look

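For 5 gene ratios the groups went opposite ways under the same contrast of IHG against Ctrl. With 1 library per group, none of these differences was tested. Dcn had a log2 ratio of 0.63 in fetal fibroblast/stellate-like cells and −0.33 in adult ones. In adult fibroblast-like against adult mesothelial-like cells, Col1a1 was at −0.38 and 1.10, Col3a1 at −0.31 and 1.11, Sparc at −0.82 and 0.34, and Fn1 at 1.08 and −2.04. Within the adult fibroblast-like cluster found in both libraries Col1a1 was at 0.13 and Col3a1 at 0.23, on the same side as in mesothelial-like cells. The Sparc ratio in mesothelial-like cells had opposite signs in clusters 21 (−0.35) and 25 (1.57).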

How the results depend on the processing

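Of 536 values of 40 named gene ratios under alternative settings, 524 kept their sign, and 31 of the 40 ratios kept it throughout. For the share of a gene's UMIs held by a class, 80 values were taken under alternatives. Of these, 54 stayed within the counting interval of the main value and 26 did not. With cells thinned, 2 of 20 stayed within it, and the largest difference was 23.9 percentage points. At resolution 0.5, 17 of 20 did, with a largest difference of 12.5 points. The alternatives that leave out the cluster of 1 library or the top cells were chosen after seeing the data. No paired analysis was possible because each group had 1 library. Adult fibroblast-like cells: the summed ratio of −0.26 became −0.13 with median-of-ratios scaling, −0.22 with cells thinned, −0.028 without the cluster of 1 library and −0.21 without the top cell. Col1a1 there turned to 0.084 when thinned and 0.13 without that cluster, and Col3a1 to 0.23 without it. Adult mesothelial-like cells: the sum of −0.04 was −0.16 without the top cell, the count of 3 past 2-fold was 5 with mean levels per cell and 6 with a minimum of 1 UMI, and Fn1 was 0.24 when thinned. Fetal fibroblast/stellate-like cells: the sum of −0.01 was −0.23 with median-of-ratios scaling, −0.11 at 10% mitochondrial UMIs, −0.15 with each library clustered by itself, 0.27 thinned, 0.40 with mean levels per cell and 0.12 without the top cell. The count of 1 was 2 with median-of-ratios scaling, without technical genes, at 500 genes, with matrix genes kept in clustering and without the top cell, 4 with each library by itself, 0 thinned, 5 with mean levels and 3 with a minimum of 1 UMI. Col1a1 turned to 0.62, Col3a1 to 0.60 and Sparc to 0.33 when thinned, and Col3a1 to 0.064 with mean levels. Fetal endothelial-like cells: the sum of 0.16 was 0.29 at 500 genes and 0.29 at 10% mitochondrial UMIs, 0.38 at resolution 0.5, 0.44 with doublets kept, 0.41 with matrix genes kept, 0.45 with each library by itself and 0.47 thinned. The count of 5 was 11 at 500 genes, 8 with doublets kept, 1 thinned, 10 with mean levels and 10 with a minimum of 1 UMI, and Fbn1 was −0.16 with mean levels. Adult endothelial-like cells: over the alternatives the summed ratio ran from −0.13 to 0.14 and the median from −0.18 to 0.48. The count past 2-fold ran from 0 to 16 there. Thinning remade the clusters (fetal fibroblast/stellate-like 15 and 21 cells, fetal endothelial-like 25 and 116), and the cause of its reversals was not tested.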
